A study of Danio rerio with 6 samples.

Results

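Hox genes, the homeobox genes of the zebrafish Hox clusters, were followed on expression arrays that measured whole embryos of the zebrafish TL strain. Members were all probe sets whose platform gene symbol begins with hox, a letter from a to d and a digit, which gave 42 genes with 59 probe sets, among 8793 gene symbols and 15617 probe sets on the array. By paralog number, 17 probe sets of 13 genes were anterior (groups 1 to 4), 18 probe sets of 12 genes middle (5 to 8) and 24 probe sets of 17 genes posterior (9 to 13). By cluster letter, 14 probe sets belonged to A, 21 to B, 16 to C and 8 to D. The RefSeq table of assembly GRCz12tu lists 50 Hox symbols in 7 clusters, and hoxb1b, hoxc10a, hoxc12a, hoxd12a, hoxa13a, hoxb13a, hoxc13b and hoxa10ap were not analysed here because no probe set carried their symbol.

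Of the 6 arrays, 2 held RNA of embryos given about 2.5 pmol of a morpholino against Spt5, and 2 held RNA of embryos given the same amount of a standard control morpholino, all at 21 hours post-fertilization (hpf). Both morpholinos carried carboxyfluorescein and were injected into embryos of 1 or 2 cells. The other arrays held untreated embryos, 1 at 21 hpf and 1 at 5 hpf. A morpholino is an antisense oligonucleotide that blocks its target RNA, and Spt5 is part of DSIF, a factor that acts on RNA polymerase II in pausing and elongation. The oligonucleotide used against Spt5, shown because it defines the treated group, has 25 bases:

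Spt5 morpholino: gtttctctacagtctgtcgctcctg

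Its binding place on the supt5h RNA is not stated in the labels. The supt5h transcript had intensities of 172.7 and 180.9 with the Spt5 morpholino against 187.4 and 209.1 with the control morpholino, and its normalised log2 difference was 0.05 ± 0.14 (SE; limma adjusted p = 0.804), which does not check the knockdown, since a morpholino that acts on translation need not change its target RNA.

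Hox genes encode transcription factors that bind DNA through a homeodomain, often together with Pbx and Meis cofactors. Their order within a cluster follows the order in which they are switched on and the place along the head-to-tail axis where their expression begins, so that low-numbered genes pattern the hindbrain and pharyngeal arches, middle genes the trunk, and high-numbered genes the tail and the paired fins. Retinoic acid, Cdx factors and tail bud signals set these domains, and Polycomb and trithorax proteins maintain them. Zebrafish keep duplicated clusters, marked by a final a or b. Whole-embryo RNA gives 1 value for all domains of a gene, so that fewer cells expressing it and less RNA per cell cannot be told apart.

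Each probe set has a linear intensity per array, as deposited. The array medians lay at 26.9 and 36.2 with the Spt5 morpholino, against 32.6 and 44 with the control morpholino, and at 40.3 in untreated embryos at 21 hpf against 18.3 at 5 hpf. For this reason groups were compared on quantile-normalised log2 values, and a normalised log2 value of 5, an intensity of 32, was used as the lower limit of reliable signal. Markers followed the labelled ages: neuron, skeletal muscle and blood lists had 6 of 9, 7 of 7 and 4 of 4 genes at 32 or more in untreated embryos at 21 hpf and 0 in each list at 5 hpf, and the blastula list had 1 of 6 at 21 hpf and 3 of 6 at 5 hpf. The number of arrays limits the precision, and nothing in the labels ties the replicates to separate clutches, so the p-values cover the spread of these arrays alone, which may be technical.

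Hox transcripts were below the signal limit at 5 hpf, and most were measurable at 21 hpf. In untreated embryos 0 of 59 probe sets reached an intensity of 32 at 5 hpf, where the highest was 12.7, while 38 did at 21 hpf. In deposited intensity all 59 were brighter at 21 hpf than at 5 hpf, on arrays whose medians also differed (40.3 against 18.3). On normalised values this did not hold for some dim probe sets. In deposited intensity, the share of Hox probe sets that rose from below 32 to at least 32 with age was 64.4%. It was 20.0% of the 15502 probe sets outside the array's controls. In the opposite direction went 0 Hox probe sets, against 6.46%. That 0 was fixed in advance, since no Hox probe set reached 32 at 5 hpf. Those that rose past 32 were 12 of 17 anterior, 11 of 18 middle and 15 of 24 posterior probe sets. These are single arrays without a replicate, and no test was made.

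The brightest Hox transcripts of untreated embryos at 21 hpf came from all 3 axial classes. The trunk gene hoxc8a had an intensity of 313.8 at 21 hpf against 5.1 at 5 hpf in its brightest probe set. Its other probe sets had only 36.4 and 10.2 at 21 hpf against 0.7 and 7.8 at 5 hpf. The hindbrain gene hoxb3a had 209.7 at 21 hpf against 7.0 at 5 hpf, and hoxb9a, expressed in trunk and tail, had 129.4 and 112.0 in its 2 probe sets at 21 hpf against 2.9 and 4.9 at 5 hpf. Different probe sets bind with different strength, so these intensities do not rank the genes by transcript number. On the normalised scale of the 2 untreated arrays, dim values were raised to the limit. There 30 Hox probe sets lay above the limit at 21 hpf, and no Hox probe set did at 5 hpf. All 30 passed through the 21 hpf array alone and could only come out higher, so their direction is no result. Of them 11 were at least 2-fold higher at 21 hpf and 0 lower. Among 9294 probe sets above the limit at either age, 23.3% were higher and 24.3% lower. The bound was at least 8.31-fold for the brightest hoxc8a probe set, 5.78-fold for hoxb3a and 3.54-fold for the brighter hoxb9a probe set. It is limited by the floor. The other hoxc8a probe sets lay below the limit at both ages on this scale. With neither the filter nor the floor, 47 probe sets were at least 2-fold apart, in both directions. Lower at 21 hpf were a dim hoxc8a probe set (normalised log2 of 2.54 against 3.75 at 5 hpf) and a dim one of hoxd3a (0.76 against 1.79). All these values lie below the limit.

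**Figure D1:**
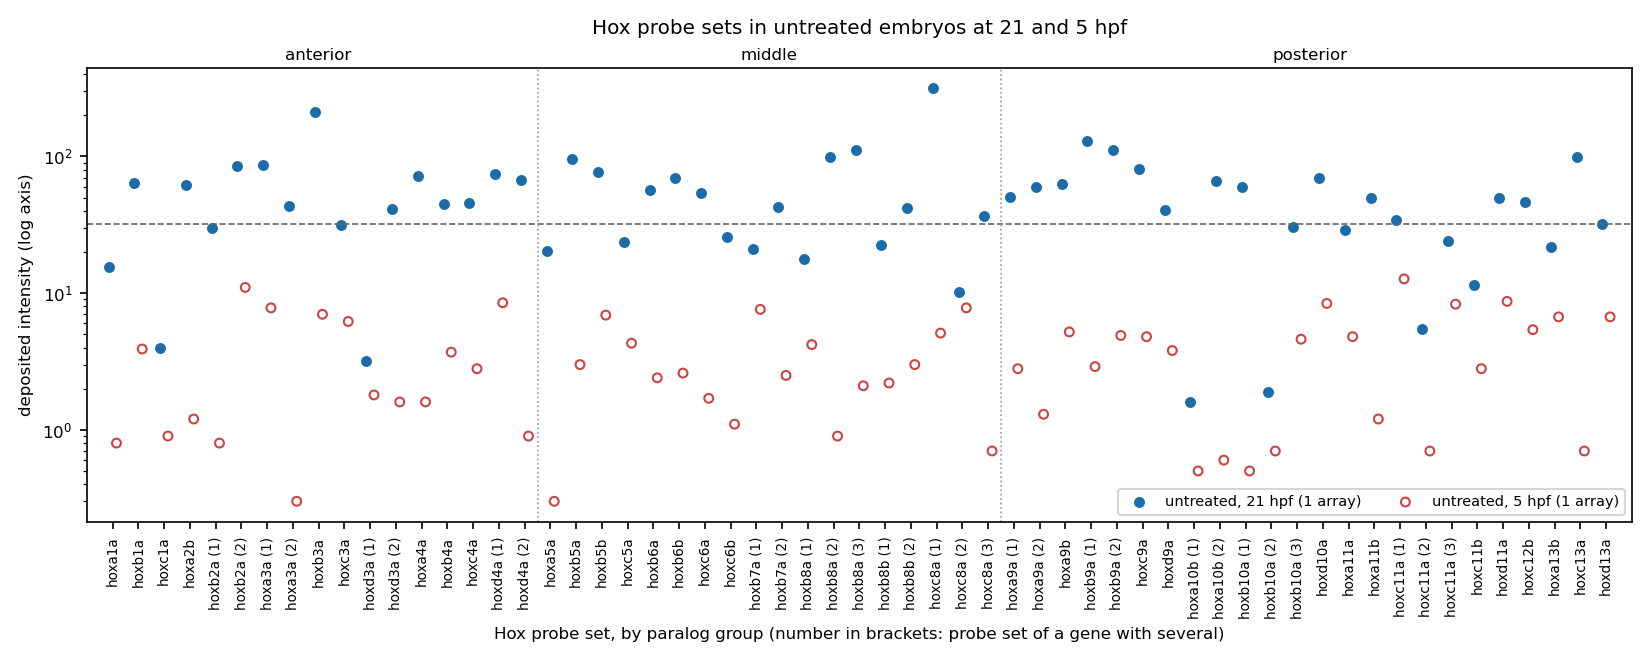
Deposited intensity (log axis) of all 59 Hox probe sets in untreated embryos at 21 hpf (filled) and 5 hpf (open), 1 array each, ordered by paralog group with dotted lines between anterior, middle and posterior genes. The dashed line marks an intensity of 32: no open point reaches it, the highest lying at 12.7, and 38 filled points lie above it.

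The question put to the 4 morpholino arrays was which transcripts change when Spt5 is targeted. Single Hox genes moved in both directions, with hoxc4a, hoxc13a, hoxa9a, hoxb5b and hoxb8a lower and hoxc6a, hoxc6b, hoxc8a, hoxb9a and hoxb10a higher in Spt5 morpholino embryos. Of 36 tested Hox probe sets (29 genes), 6 were called higher and 5 lower by limma at an adjusted p of 0.05, that is 30.6%, against 47.3% of all 8457 tested probe sets (24.3% higher and 23.0% lower). The median size of the difference, without its sign, was 0.36 on the log2 scale for the tested Hox probe sets and also 0.36 for all tested ones. Differences of at least 2-fold that passed the test were found for 3 Hox probe sets, those of hoxc4a, hoxc13a and 1 of hoxc8a, against 11.6% of all probe sets. With 1 probe set per gene, the brightest, 4 genes were called higher and 4 lower. The test needs a value of at least 5 on 2 or more arrays, and 2 Hox probe sets passed through the control arrays alone (hoxc4a and hoxc13a) and 2 through the Spt5 arrays alone (hoxc6b and the dimmer one of hoxc8a), so these 4 had to differ between the groups and their calls support no count.

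The direction of small differences depends on the scaling. Without normalization between arrays the median of all probe sets was -0.21, and centred on hybridization controls -0.28, against 0.04 here, and the Hox median was -0.11 and -0.22, against 0.16. On the as-deposited values 1 Hox probe set was called higher (hoxc8a) and 2 lower (hoxc4a and hoxc13a), and 18.4% of all calls were higher, against 51.5% here. Centring on hybridization controls gave 3 higher and 14 lower Hox calls, with 20.0% of all calls higher. All differences below are relative to the quantile-normalized distribution.

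Anterior Hox genes, which pattern the hindbrain and arches, had 1 of 11 tested probe sets called, hoxc4a, which was lower. Their median difference was -0.18, with 8 values below 0 and 3 above. Among all tested probe sets the share called was 47.3%, with 24.3% higher and 23.0% lower. The transcript of hoxc4a, a group 4 gene of the caudal hindbrain and anterior spinal cord, had normalised log2 values of 3.64 and 3.26 with the Spt5 morpholino against 5.13 and 5.41 with the control morpholino. Both Spt5 arrays lay below the limit and both control arrays above it, so the groups did not overlap. It was at least 1.21-fold lower, with a fitted difference of -1.82 ± 0.17 (adjusted p = 0.0018). In deposited intensities it had 9.8 and 10.2 with the Spt5 morpholino against 33.3 and 54.2 with the control morpholino and 45.5 in untreated embryos. It passed the limit through the control arrays alone, so it had to differ and its call supports no count. For the same reason it was not tested at log2 6 or, with the limit applied anew, without either control array. In the alternatives in which it was tested the difference lay between -2.15 and -1.63. Without any limit its adjusted p was 0.0471.

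The other group 4 probe sets had smaller values of the same sign and were not called. For hoxa4a the values were 5.91 and 5.45 on the Spt5 arrays against 6.17 and 6.02 with the control morpholino (-0.42 ± 0.18, adjusted p = 0.108). One probe set of hoxd4a had 5.66 and 5.51 on the Spt5 arrays against 5.82 and 6.21 on the control arrays (-0.42 ± 0.16, adjusted p = 0.0784). The groups did not overlap for either. The second hoxd4a probe set, at 5.43 and 4.92 with the Spt5 morpholino against 5.40 and 5.31 with the control morpholino, overlapped (-0.18 ± 0.18). The hoxb4a probe set did not pass the limit on 2 arrays, at 4.73 and 4.46 on the Spt5 arrays against 5.24 and 4.65 on the control arrays. With 1 array left out, hoxa4a ran from -0.64 (without Spt5 morpholino replicate 1) to -0.18 (without Spt5 morpholino replicate 2). The first hoxd4a probe set ran from -0.62 (without control morpholino replicate 1) to -0.23 (without control morpholino replicate 2).

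Groups 1 to 3 gave no call. The rhombomere gene hoxb1a, which specifies the segment where facial motor neurons arise, had 6.70 and 6.64 with the Spt5 morpholino against 5.87 and 6.44 with the control morpholino (0.51 ± 0.20, adjusted p = 0.0872). Its groups did not overlap. With 1 array left out it ran from 0.23 (without control morpholino replicate 1) to 0.81 (without control morpholino replicate 2). The second-arch gene hoxa2b had 5.81 and 5.52 on the Spt5 arrays against 6.24 and 5.88 on the control arrays (-0.40 ± 0.17, adjusted p = 0.112). The hindbrain gene hoxb2a had 6.17 and 6.0 on the Spt5 arrays against 6.04 and 5.81 on the control arrays (0.16 ± 0.13), with overlapping groups and a sign that turned on the as-deposited values and with centring on hybridization controls.

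Group 3 genes mark the hindbrain behind these segments. The brightest of them, hoxb3a, had 7.61 and 7.64 with the Spt5 morpholino against 7.39 and 7.25 with the control morpholino (0.30 ± 0.10, adjusted p = 0.0575), and the groups did not overlap. Its paralog hoxa3a had 5.42 and 5.81 on the Spt5 arrays against 5.99 and 6.19 on the control arrays in one probe set (-0.47 ± 0.16, adjusted p = 0.0647) and 5.11 and 5.56 on the Spt5 arrays against 5.17 and 5.73 on the control arrays in the other (-0.12 ± 0.24). Only the first of these separated the groups. With 1 array left out it ran from -0.66 (without Spt5 morpholino replicate 2) to -0.28 (without Spt5 morpholino replicate 1). For hoxd3a the Spt5 arrays lay far apart, at 5.50 and 4.34, on both sides of the control values of 4.79 and 5.08 (-0.01 ± 0.38).

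**Figure D2:**
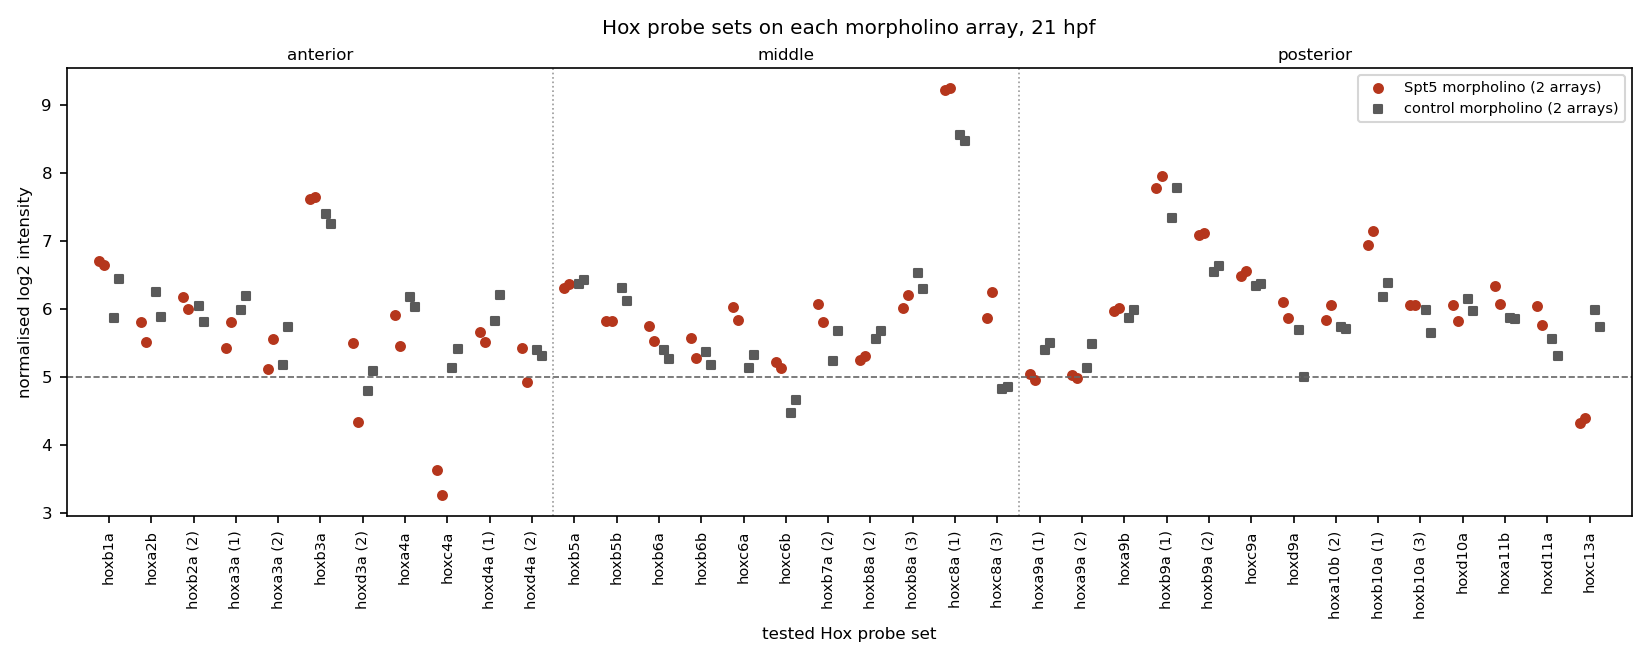
Normalised log2 intensity of the 36 tested Hox probe sets on each morpholino array at 21 hpf, Spt5 morpholino (circles, 2 arrays) left of control morpholino (squares, 2 arrays), ordered by paralog group. The dashed line is the limit of 5: hoxc4a and hoxc13a lie below it on both Spt5 arrays and above it on both control arrays. The brightest member is a hoxc8a probe set, at 9.21 and 9.24 on the Spt5 arrays against 8.55 and 8.47 on the control arrays.

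Middle Hox genes, which pattern the trunk, had 4 of 11 tested probe sets called higher and 2 lower. Among all tested probe sets these shares were 24.3% and 23.0%. The median difference of the middle probe sets was 0.32. Those called higher belonged to hoxc6a, hoxc6b and hoxc8a. Of these, hoxc6b and the dimmer hoxc8a probe set passed the limit through the Spt5 arrays alone, so their calls support no count. For hoxc8a, a gene of the trunk, 2 probe sets were called. The brighter had 9.21 and 9.24 with the Spt5 morpholino against 8.55 and 8.47 with the control morpholino, a fold of 1.64 (0.72 ± 0.09, adjusted p = 0.0039). The dimmer had 5.86 and 6.25 on the Spt5 arrays against 4.82 and 4.85 on the control arrays, both below the limit, which makes it at least 2.08-fold higher (fitted 1.22 ± 0.15, adjusted p = 0.0036). In the brighter probe set each Spt5 array lay above each control array. Its call held when any 1 array was left out with the tested probe sets kept. The dimmer passed the limit through the Spt5 arrays alone, so its groups had to lie apart. Its calls with the tested probe sets kept, which also held, therefore add no support. The brighter lost its call on the as-deposited values (0.50, adjusted p = 0.303) and the dimmer kept it (0.95, adjusted p = 0.0189).

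Both group 6 genes of the C clusters were called higher. Group 6 genes begin to be expressed near the front of the trunk. hoxc6a had 6.02 and 5.84 with the Spt5 morpholino against 5.13 and 5.32 with the control morpholino (0.71 ± 0.12, adjusted p = 0.0087). Its duplicate-cluster partner hoxc6b had 5.22 and 5.13 on the Spt5 arrays against 4.47 and 4.66 on the control arrays, both below the limit, at least 1.13-fold higher (fitted 0.61 ± 0.11, adjusted p = 0.0104). With the tested probe sets kept, hoxc6b missed the threshold without Spt5 morpholino replicate 1 (0.56, adjusted p = 0.0577). The group 6 genes of the B clusters pointed the same way and were not called: hoxb6a had 5.75 and 5.53 on the Spt5 arrays against 5.39 and 5.26 on the control arrays (0.32 ± 0.12, adjusted p = 0.0829). hoxb6b had 5.57 and 5.28 on the Spt5 arrays against 5.37 and 5.17 on the control arrays (0.15 ± 0.14) with overlapping groups. The signs of hoxb6a and hoxb6b turned with centring on hybridization controls, and that of hoxb6b also on the as-deposited values.

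The 2 lower calls among middle genes were small, and most arrays could not be left out without losing them. hoxb5b, which in zebrafish limits the number of atrial heart cells, had 5.82 and 5.82 with the Spt5 morpholino against 6.30 and 6.11 with the control morpholino (-0.39 ± 0.11, adjusted p = 0.0346). Its adjusted p was 0.112 and 0.116 when the first and the second Spt5 array was left out, and 0.140 without control morpholino replicate 1. hoxb8a had 5.25 and 5.30 on the Spt5 arrays against 5.56 and 5.67 on the control arrays in a probe set whose suffix marks it as one that can bind transcripts of more than 1 gene (-0.33 ± 0.10, adjusted p = 0.0400). It lost the call without any 1 of the 4 arrays, at adjusted p between 0.0749 and 0.144. A second hoxb8a probe set, without that suffix, had 6.01 and 6.21 on the Spt5 arrays against 6.53 and 6.29 on the control arrays (-0.30 ± 0.13, adjusted p = 0.118). The groups did not overlap in either hoxb8a probe set.

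The remaining middle genes were not called. hoxb5a, of the anterior spinal cord, had 6.31 and 6.36 with the Spt5 morpholino against 6.36 and 6.43 with the control morpholino (-0.06 ± 0.09), the smallest difference among middle members. hoxb7a had 6.07 and 5.80 on the Spt5 arrays against 5.23 and 5.68 on the control arrays (0.48 ± 0.19, adjusted p = 0.0904), with no overlap. With 1 array left out it ran from 0.25 (without control morpholino replicate 1) to 0.72 (without control morpholino replicate 2).

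Posterior Hox genes, which pattern the tail and the distal fins, had 2 of 14 tested probe sets called higher and 2 lower. Among all tested probe sets these shares were 24.3% and 23.0%. The median difference of the posterior probe sets was 0.23. The largest fall was that of hoxc13a, a gene of the last paralog group, which is expressed at the tail end of the axis. It had 4.33 and 4.39 with the Spt5 morpholino against 5.99 and 5.74 with the control morpholino. The Spt5 arrays lay below the limit, and it was at least 1.82-fold lower (fitted -1.51 ± 0.12, adjusted p = 0.0013). Deposited intensities were 15.5 and 21.8 with the Spt5 morpholino against 60.5 and 67.5 with the control morpholino and 98.8 in untreated embryos. Like hoxc4a it passed through the control arrays alone, so its groups had to lie apart and its call supports no count. It was not tested under the settings in which hoxc4a was not tested. Elsewhere the difference lay between -1.86 and -1.38. Without any limit its adjusted p was 0.0453. The other 2 measured genes of this paralog group, hoxa13b and hoxd13a, stayed below the limit on all 4 arrays and were not tested.

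The posterior genes called higher were hoxb10a and hoxb9a, neighbouring groups of 1 cluster. hoxb10a had 6.94 and 7.15 with the Spt5 morpholino against 6.17 and 6.38 with the control morpholino, a fold of 1.70 (0.77 ± 0.13, adjusted p = 0.0080). The call held when any 1 array was left out. The second tested hoxb10a probe set had 6.06 and 6.05 on the Spt5 arrays against 5.98 and 5.64 on the control arrays and was not called (0.25 ± 0.14, adjusted p = 0.194), and its sign turned on the as-deposited values and with hybridization controls. hoxb9a had 7.09 and 7.12 on the Spt5 arrays against 6.54 and 6.63 on the control arrays (0.52 ± 0.09, adjusted p = 0.0101), with no overlap. Its call was lost, with the tested probe sets kept, without Spt5 morpholino replicate 2 (adjusted p = 0.0555) or control morpholino replicate 1 (0.0504). The brighter hoxb9a probe set had 7.77 and 7.95 on the Spt5 arrays against 7.33 and 7.78 on the control arrays, overlapped and was not called (0.31 ± 0.17, adjusted p = 0.203). With 1 array left out it ran from 0.09 (without control morpholino replicate 1) to 0.53 (without control morpholino replicate 2).

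Other group 9 genes included a lower one. hoxa9a had 5.05 and 4.96 with the Spt5 morpholino against 5.40 and 5.50 with the control morpholino (-0.45 ± 0.10, adjusted p = 0.0182). Leaving out Spt5 morpholino replicate 1 (adjusted p = 0.0547) or replicate 2 (0.0805) ended the call, as did, with the tested probe sets kept, leaving out control morpholino replicate 2 (0.0848). Its second probe set, at 5.03 and 4.98 on the Spt5 arrays against 5.13 and 5.48 on the control arrays, had the same sign (-0.30 ± 0.14, adjusted p = 0.137). Where it was tested with 1 array left out, that probe set ran from -0.47 (without control morpholino replicate 1) to -0.27 (without Spt5 morpholino replicate 2). hoxa9b had 5.97 and 6.01 on the Spt5 arrays against 5.86 and 5.99 on the control arrays, with overlapping groups (0.06 ± 0.10), and hoxc9a 6.48 and 6.55 on the Spt5 arrays against 6.33 and 6.37 on the control arrays (0.17 ± 0.09, adjusted p = 0.184). The signs of hoxa9b and hoxc9a turned on the as-deposited values and with hybridization controls. hoxd9a had 6.10 and 5.87 on the Spt5 arrays against 5.69 and 5.00 on the control arrays (0.64 ± 0.24, adjusted p = 0.0814). With 1 array left out it ran from 0.31 (without control morpholino replicate 2) to 0.98 (without control morpholino replicate 1).

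Groups 10 and 11 otherwise gave no call. In mice these groups shape the lumbar and sacral spine. hoxa10b had 5.83 and 6.05 with the Spt5 morpholino against 5.74 and 5.70 with the control morpholino (0.22 ± 0.11), a sign that turned on the as-deposited values and with hybridization controls. hoxd10a had 6.06 and 5.82 on the Spt5 arrays against 6.14 and 5.97 on the control arrays (-0.11 ± 0.13) and overlapped. hoxa11b had 6.33 and 6.07 on the Spt5 arrays against 5.87 and 5.85 on the control arrays (0.34 ± 0.12, adjusted p = 0.0697). hoxd11a, like hoxa11b, did not overlap between the groups, at 6.04 and 5.76 on the Spt5 arrays against 5.56 and 5.31 on the control arrays (0.47 ± 0.15, adjusted p = 0.0520). With 1 array left out it ran from 0.32 (without Spt5 morpholino replicate 1) to 0.60 (without Spt5 morpholino replicate 2).

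**Figure D3:**
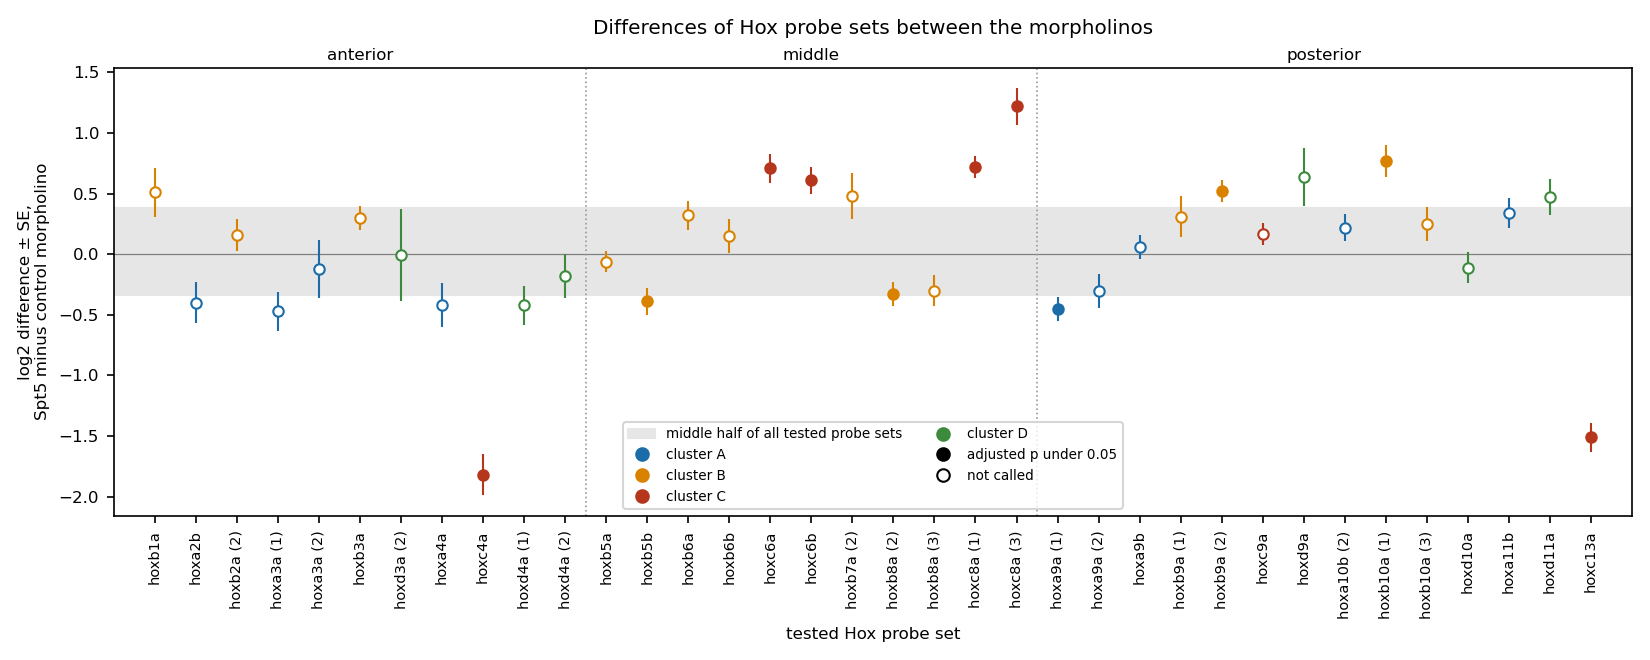
Log2 difference (Spt5 minus control morpholino, ± SE, n = 2 arrays each) of the 36 tested Hox probe sets by paralog group, coloured by cluster letter, with filled points for an adjusted p under 0.05. The grey band spans the interquartile range of all 8457 tested probe sets, from -0.34 to 0.38: the called members hoxc4a, hoxc13a, hoxa9a and hoxb5b lie below it and hoxc6a, hoxc6b, hoxc8a, hoxb9a and hoxb10a above it, as do some that were not called, such as hoxd9a (0.64) and hoxb1a (0.51).

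By cluster letter, calls were spread unevenly, as a description without a test. In the C clusters 4 of 7 tested probe sets were called higher and 2 lower, and hoxc9a was not called. Of these 6 calls, 4 belong to the probe sets of hoxc4a, hoxc6b, hoxc8a and hoxc13a that passed the limit through 1 group alone, so the count says nothing particular about these clusters. The B clusters had 2 higher and 2 lower of 14, the A clusters 0 higher and 1 lower of 9, and the D cluster 0 of 6 by limma. Among all tested probe sets 24.3% were called higher and 23.0% lower. In the D cluster 3 of the 6 had an unadjusted limma p under 0.05. At least 47.3% of all tested probe sets had one too, since that share passed the adjusted threshold. Differences in the D cluster lay between -0.42 and 0.64. Medians were -0.30 for A, 0.27 for B, 0.61 for C and -0.06 for D. Within the C clusters the differences ran, in paralog order, -1.82 for hoxc4a, 0.71 for hoxc6a, 0.61 for hoxc6b, 0.72 and 1.22 for hoxc8a, 0.17 for hoxc9a and -1.51 for hoxc13a. Of the 36 tested probe sets, 16 had both Spt5 arrays above both control arrays, against 40.5% of all tested probe sets, and 12 had both below, against 36.5%. In the remaining 8 the groups overlapped, while they did not in 77.0% of all tested probe sets.

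By axial class, the medians of -0.18, 0.32 and 0.23 for anterior, middle and posterior probe sets stood beside 0.04 for all probe sets. On the as-deposited values they were -0.56, 0.03 and -0.03, beside -0.21 for all, and with hybridization controls -0.52, -0.10 and -0.10, beside -0.28. With the limit raised to log2 6, which left 15 Hox probe sets, the anterior median was 0.23 and the middle -0.18. Without Spt5 morpholino replicate 1 the medians were -0.35, 0.01 and 0.23 for anterior, middle and posterior. The order of the classes thus changed with the setting, and the reason was not tested.

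The 23 Hox probe sets that did not pass the limit had intensities between 1.1 and 38.4 on the morpholino arrays. They left 13 genes without a tested probe set: hoxa1a, hoxc1a, hoxc3a, hoxb4a, hoxa5a, hoxc5a, hoxb8b, hoxa11a, hoxc11a, hoxc11b, hoxc12b, hoxa13b and hoxd13a. One of them, hoxc1a, had 2.3 and 8.0 with the Spt5 morpholino against 11.7 and 14.1 with the control morpholino. hoxd13a had 10.3 and 21.0 on the Spt5 arrays against 29.0 and 27.8 on the control arrays, and hoxc12b 17.3 and 10.8 on the Spt5 arrays against 20.6 and 31.0 on the control arrays. Others went the other way: hoxa5a had 11.2 and 18.6 on the Spt5 arrays against 7.0 and 9.8 on the control arrays. hoxc11b had 15.7 and 25.7 on the Spt5 arrays against 14.3 and 19.8 on the control arrays. All these are deposited intensities, on arrays whose medians differ. These genes were not tested, and their values say nothing on whether the transcripts differed.

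For 8 genes a pair of probe sets carries the same identifier apart from an A or an S, which is taken from the array maker's naming as the orientation of the target, since no file used here states it. Levels of different probe sets are not set against each other. The A members of these pairs did not pass the limit in the comparison of morpholinos, so the 36 tested values hold none of them. That of hoxb10a had 7.9 and 11.9 with the Spt5 morpholino against 7.9 and 23.0 with the control morpholino. Outside these pairs, other tested probe sets also carry an A: the brighter ones of hoxc8a, hoxb9a and hoxb10a, and those of hoxd11a and hoxc13a. So does the called probe set of hoxa9a. Of these, all but those of hoxb9a and hoxd11a were called between the morpholinos, while 47.3% of all tested probe sets were called. That of hoxc13a passed the limit through the control arrays alone, so its call supports no count. Whether the letter bears on the calls was not tested.

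Untreated embryos at 21 hpf served as a second reference. In a fit of the 5 arrays at 21 hpf, which assumes that the lone untreated array varies like the morpholino groups, 9 of 38 tested Hox probe sets were called higher and 5 lower in Spt5 morpholino embryos, against 43.9% of 8701 probe sets (23.0% higher and 20.9% lower). With the control morpholino 1 was called higher and 1 lower, against 2.87% (1.75% higher and 1.13% lower). In this control morpholino comparison an unadjusted limma p under 0.05 was found for 8 of the 38 Hox probe sets. The share over all probe sets was not computed, so this count cannot be read as more or less than that share. Both comparisons use the same untreated array, and each shares morpholino arrays with the comparison above.

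The C-cluster members are given first. hoxc4a was at -1.83 ± 0.21 with the Spt5 morpholino (at least 1.25-fold lower, adjusted p = 0.0036), against -0.01 ± 0.21 with the control morpholino. hoxc13a was at -2.08 ± 0.15 with the Spt5 morpholino (at least 2.81-fold lower, adjusted p = 0.0014), against -0.59 ± 0.15 with the control morpholino (adjusted p = 0.108). The 2 hoxc8a probe sets were at 1.07 ± 0.11 and 1.1 ± 0.19 with the Spt5 morpholino (adjusted p = 0.0031 and 0.0096, the second at least 2.13-fold), against 0.34 ± 0.11 and -0.11 ± 0.19 with the control morpholino. hoxc6b was at 0.74 ± 0.14 with the Spt5 morpholino (at least 1.16-fold higher, adjusted p = 0.0125), against 0.13 ± 0.14 with the control morpholino. In this fit hoxc6b and the second hoxc8a probe set lay below the limit on the control morpholino and untreated arrays. They passed through the Spt5 arrays alone, so they had to differ and their calls support no count. hoxc4a and hoxc13a lay below the limit on the Spt5 arrays and passed through the other arrays alone, so their calls support no count either. hoxc6a, at 0.38 ± 0.15 with the Spt5 morpholino, against -0.32 ± 0.15 with the control one, was called in neither.

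For some B-cluster genes the control morpholino moved too. hoxb10a was higher than in untreated embryos with the Spt5 morpholino in both tested probe sets, at 1.34 ± 0.16 and 1.37 ± 0.17 (adjusted p = 0.0038 and 0.0042). With the control morpholino these were 0.58 ± 0.16 and 1.12 ± 0.17, the second called (adjusted p = 0.0461). The untreated array lay below the limit for that second probe set, which makes it at least 2.13-fold higher with the Spt5 morpholino and 1.80-fold with the control morpholino. That probe set passed the limit through the morpholino arrays alone, so it had to differ and its calls support no count. The hoxb8a probe set that can bind several transcripts was lower with both, at -1.16 ± 0.12 with the Spt5 morpholino (adjusted p = 0.0028), against -0.83 ± 0.12 with the control one (adjusted p = 0.0424). Both control morpholino calls were lost when any 1 of the 4 morpholino arrays was left out. The Spt5 comparison also called hoxb1a (0.87 ± 0.24, adjusted p = 0.0393), hoxa11b (0.79 ± 0.15, adjusted p = 0.0125) and the brighter hoxb9a probe set (0.98 ± 0.21, adjusted p = 0.0193) higher in Spt5 morpholino than in untreated embryos, although none of these 3 was called between the morpholinos. It also called the other hoxb9a probe set higher (0.44 ± 0.12, adjusted p = 0.0334) and both hoxa9a probe sets lower (-0.43 ± 0.12 and -0.68 ± 0.17, adjusted p = 0.0407 and 0.0288). hoxb5b, lower than with the control morpholino, was not called against untreated embryos (-0.27 ± 0.13, adjusted p = 0.155).

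**Figure D4:**
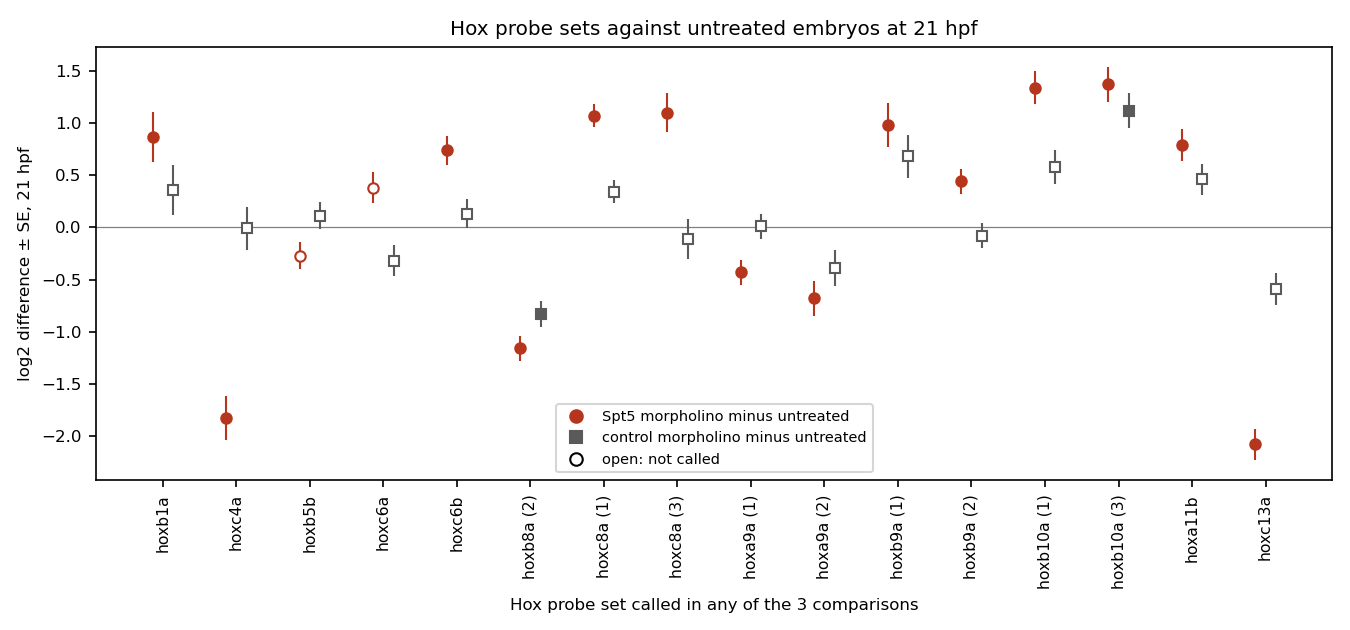
Log2 difference from untreated embryos at 21 hpf (± SE) with the Spt5 morpholino (circles) and the control morpholino (squares), for the Hox probe sets called in any of the 3 comparisons, with open symbols where not called. hoxc4a lies at -1.83 with the Spt5 morpholino, against -0.01 with the control morpholino, whereas for the second tested hoxb10a probe set both lie high, at 1.37 and 1.12.

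Regulators and partners of Hox genes were read from lists chosen with earlier results of these data known, so the counts are descriptive, to be read beside 24.3% higher and 23.0% lower among all 8457 tested probe sets. In the list of Cdx and tail bud factors, which act on posterior Hox genes, 5 of 5 tested genes rose with the Spt5 morpholino and 0 fell. Of all tested probe sets 24.3% were called higher, and the list median was 0.79. In this list eve1 passed the limit through the Spt5 arrays alone, so it had to differ and its call supports no count. cdx4, a direct activator of Hox genes in zebrafish, had 9.94 and 9.91 with the Spt5 morpholino against 8.84 and 8.88 with the control morpholino (1.06 ± 0.09, adjusted p = 0.0015). tbx16 had 7.26 and 7.23 on the Spt5 arrays against 6.18 and 6.04 on the control arrays (1.14 ± 0.10, adjusted p = 0.0016). Besides these, the notochord and tail bud gene tbxta rose by 0.79 ± 0.16 and the signal gene fgf8a by 0.73 ± 0.11 (adjusted p = 0.0143 and 0.0059). The count was 2 of 5 on the as-deposited values, 2 of 7 without the filter and 4 of 5 with hybridization controls, and 3 of 4 without Spt5 morpholino replicate 2, where the fifth did not pass the limit.

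Cofactors moved the other way. In the list of TALE homeobox cofactors (Pbx, Meis and Pknox), 6 of 8 tested genes fell and 0 rose, against 23.0% of all tested probe sets called lower, with a median of -0.43, although none of the 6 fell by 2-fold. meis2a, a partner of Hox proteins on DNA, had 5.62 and 5.87 with the Spt5 morpholino against 6.48 and 6.35 with the control morpholino (-0.67 ± 0.12, adjusted p = 0.0106). The others with the largest falls were meis3 (-0.60 ± 0.11, adjusted p = 0.0093), pbx4 (-0.51 ± 0.10, adjusted p = 0.0128) and meis1b (-0.49 ± 0.09, adjusted p = 0.0108). The count was 1 on the as-deposited values and 8 with hybridization controls. It was 2 to 4 when any 1 array was left out, and 0 without the filter.

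The retinoic acid list was mixed, with 2 of 9 tested genes risen and 3 fallen, close to the shares of 24.3% and 23.0% among all tested probe sets. cyp26a1, whose enzyme breaks down retinoic acid, had 8.36 and 8.57 with the Spt5 morpholino against 7.0 and 7.06 with the control morpholino (1.44 ± 0.11, adjusted p = 0.0013). A second enzyme of that family, cyp26b1, was below the limit with the Spt5 morpholino, at 3.74 and 4.18 on the Spt5 arrays against 6.02 and 5.91 on the control arrays, at least 1.96-fold lower (adjusted p = 0.0015). It passed the limit through the control arrays alone, so it had to differ and its call supports no count. The binding protein gene crabp2b rose by 1.54 ± 0.11 (adjusted p = 0.0012), and its paralog crabp2a was at -1.04 ± 0.20 (adjusted p = 0.0120). The number fallen was 1 without the filter and 4 with hybridization controls, and without control morpholino replicate 1, 3 rose and 1 fell.

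Of 4 tested hindbrain segment factors 3 rose and 0 fell, among them irx7 (1.15 ± 0.09, adjusted p = 0.0013) and irx1b (0.68 ± 0.09, adjusted p = 0.0046). The third, hnf1bb, which helps to set the caudal hindbrain, was at least 1.33-fold higher (adjusted p = 0.0038). It passed the limit through the Spt5 arrays alone, so it had to differ and its call supports no count. The count was 1 on the as-deposited values and 4 with arrays centred on the median. In the Polycomb and trithorax list 2 of 17 rose and 5 fell, against 24.3% and 23.0% of all tested probe sets, and without the filter limma called 0 either way. The largest were suz12b (-0.80 ± 0.12, adjusted p = 0.0053), a core subunit of the complex that methylates histone H3, men1, which encodes the trithorax-complex protein menin (-0.79 ± 0.13, adjusted p = 0.0070), phc2a (0.73 ± 0.09, adjusted p = 0.0035) and ash2l (-0.64 ± 0.09, adjusted p = 0.0050). With hybridization controls 1 rose and 11 fell, and on the as-deposited values 0 and 3.

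Lists of tissue markers were also compared between the morpholinos. All 4 genes of the tail bud and posterior mesoderm list rose, 2 of which (tbxta and tbx16) are also in the Cdx list, and their summed normalised intensity was 1225 and 1324 with the Spt5 morpholino against 791 and 749 with the control morpholino. The count was 1 on the as-deposited values, 1 without the filter and 2 without Spt5 morpholino replicate 2, and 24.3% of all tested probe sets were called higher. In the skeletal muscle list 4 of 7 fell and 1 rose, with sums of 3774 and 3857 on the Spt5 arrays against 6118 and 6297 on the control arrays. Of those that fell, tnni2a.4 passed the limit through the control arrays alone, so it had to differ and its call supports no count. Without the filter 2 fell and 0 rose in this list. Among all tested probe sets 23.0% were called lower, a share to be read beside the falls here and in the lists below. The neuron list had 2 of 5 tested genes risen (0 on the as-deposited values and without the filter, and 1 risen and 1 fallen with hybridization controls) and sums of 681 and 624 on the Spt5 arrays against 567 and 589 on the control arrays, and the neural progenitor list 1 risen and 2 fallen of 5, with sums of 1505 and 1585 on the Spt5 arrays against 1592 and 1692 on the control arrays. In the neural crest list 1 of 4 rose (tfap2a, 0.35) and 1 fell (crestin), with a median of 0.07. Both Spt5 arrays lay below the limit for crestin, which makes it at least 9.47-fold lower (fitted -4.07). It passed through the control arrays alone, so it had to differ and its call supports no count. Neural crest sums were 695 and 704 on the Spt5 arrays against 887 and 877 on the control arrays, and of the 2 pectoral fin genes on the array 0 passed the limit. Blood sums were 413 and 381 on the Spt5 arrays against 2878 and 2741 on the control arrays, with 3 of 3 tested genes fallen. Among these alas2 passed the limit through the control arrays alone, so it had to differ and its call supports no count. Epidermis had 0 of 3 called by limma and sums of 9252 and 9315 on the Spt5 arrays against 8462 and 8616 on the control arrays. All 3 tested blastula genes (vox, pou5f3 and ved) rose, with list sums of 813 and 750 on the Spt5 arrays against 284 and 264 on the control arrays. Of these, ved had a deposited intensity of only 22.1 at 5 hpf. pou5f3 had 37.0 and 62.1 on the Spt5 arrays against 35.7 and 44.8 on the control arrays and 1179 at 5 hpf. nanog, at 2226 at 5 hpf, had 9.5 and 12.5 on the Spt5 arrays against 10.8 and 19.1 on the control arrays. Like mixl1 and sox32 it was not tested. No marker was listed at 0 in any of these lists. The ratio of 3' to 5' signal of the actin controls was 6.94 and 6.99 with the Spt5 morpholino against 9.91 and 9.61 with the control morpholino. The part of these differences in the Hox results was not tested.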

How the data were processed

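Whole-embryo RNA of 6 samples was hybridised to Affymetrix zebrafish arrays, and groups were taken from the sample titles. The deposited intensity values are linear probe set summaries, made with GCRMA per the submitters' processing notes, whose version and settings the labels leave out. After 115 control probe sets were left out, log2 values were quantile normalized over the arrays of each fit. The medians of the deposited intensity columns differ. Probe sets with a log2 value of at least 5 on at least 2 arrays entered limma 3.58.1 (lmFit and eBayes, R 4.3.3), with two-sided p-values adjusted by Benjamini-Hochberg over all tested probe sets and a threshold of 0.05. The fit was tested on simulated data. The comparison of morpholinos used 4 arrays with 2 residual degrees of freedom, and comparisons with untreated embryos the 5 arrays at 21 hpf. Ages were compared without a test. Where a group lay below log2 5 on every array, a fold is a lower limit with dim values at log2 5. Hox probe sets that passed the limit are named with their values, the rest by range, and of each regulator list at most 4 called genes. Lists used each gene's brightest probe set, by mean log2 value, with symbols updated to RefSeq. The members and lists were chosen with earlier results of these data known. Alternatives were the as-deposited log2 values, centring on array medians, no filter, a filter at log2 6, the replicate number as a block, each array left out, a fit over 5 arrays and a 1.5-fold call rule. Centring on 9 hybridization controls, and leaving out arrays with the tested probe sets kept, were chosen after seeing the data.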

Additional observations from a re-analysis of the deposited data

How the results depend on the processing

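The calls of hoxc4a and hoxc13a held in the 11 alternatives in which each was tested. Both passed the limit through the control arrays alone, so they had to differ, and calls that held under a limit add no support. They were not tested at log2 6 or, with the limit applied anew, without either control array. Without any limit the limma adjusted p was 0.0471 for hoxc4a and 0.0453 for hoxc13a. Each of the other 9 Hox calls was lost in at least 1 alternative. On the as-deposited values 1655 probe sets were called, 305 higher, with 3 Hox calls, 1 higher and 2 lower, and Hox medians of -0.11 overall and -0.56, 0.03 and -0.03 for anterior, middle and posterior probe sets. Signs then turned for hoxb2a (-0.10), hoxb6b (-0.12), hoxa9b (-0.20), hoxc9a (-0.05), hoxa10b (-0.04) and the second tested probe set of hoxb10a (-0.01). Centring on hybridization controls gave 896 higher and 3577 lower probe sets, 17 Hox calls (3 higher, 14 lower) and Hox medians of -0.22, -0.52, -0.10 and -0.10 in the same order, with turned signs for hoxb2a (-0.16), hoxb6a (-0.03), hoxb6b (-0.18), hoxa9b (-0.26), hoxc9a (-0.11), hoxa10b (-0.10) and hoxb10a (-0.07). Centring on medians gave 10 higher Hox calls of 36 tested, beside 2217 higher of all 8455 tested probe sets. Without the filter 874 probe sets were called, 342 higher and 532 lower, with 2 Hox calls, 0 higher and 2 lower. The filter at log2 6 gave 6 Hox calls of 15 tested, 1 lower, beside 3303 calls of all 5921 tested probe sets. The anterior and middle medians were then 0.23 and -0.18. A 1.5-fold rule left 7, 2 of them lower.

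Leaving out 1 morpholino array at a time gave 2352 to 2788 called probe sets (975 to 1612 higher, 1158 to 1463 lower) and 7 to 11 Hox calls (4 to 9 higher, 1 to 3 lower). The filter was applied anew, and the lone array was assumed to vary like the other group. Hox medians ran from -0.35 to -0.18 for anterior and 0.01 to 0.30 for middle probe sets. Signs turned in some of these fits for the second hoxa3a probe set (-0.40 to 0.17), hoxd3a (-0.16 to 0.57), the second hoxd4a probe set (-0.43 to 0.08), hoxd10a (-0.23 to 0.01) and hoxa9b (-0.01 to 0.13). With the replicate number as a block, 17 of 36 Hox probe sets were called (8 lower), against 11. Calls also rose over all 8457 tested probe sets, to 4439 from 4001, so the rise is not particular to Hox genes. No label pairs the replicates, and their deviations correlated at 0.254 across probe sets. Against untreated embryos the Hox calls numbered 14 with the Spt5 morpholino, 4 as deposited, 1 without the filter, 22 with hybridization controls and 8 to 17 with 1 array left out. With the control morpholino there were 2, against 0 as deposited, without the filter or with any 1 array left out, and 1 with the filter at log2 6. For the ages 11 Hox probe sets were at least 2-fold apart, against 18 as deposited or with hybridization controls, 47 without the filter and floor, and 2 at log2 6. The cause of these differences was not tested. The signal over background limits the 23 Hox probe sets below the limit.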
